A study of Rattus norvegicus with 12 samples.

Results

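Pex11a, Ech1, Ehhadh, Hsd17b4 and Abcd3 are 5 rat genes of peroxisomal fatty acid oxidation and peroxisome division. They were taken as the probe sets to which the array annotation gives only that symbol, which found 10 of 8740 probe sets and 5 of 4736 named genes. Ech1 and Ehhadh had 1 probe set each, Pex11a and Abcd3 had 2 each and Hsd17b4 had 4. Liver RNA of male Sprague-Dawley rats was hybridised to 12 single-colour Affymetrix arrays, 3 for each of 4 diets: 70% fat from corn oil, 5% fat from corn oil, 70% fat from olive oil and 5% fat from olive oil. Per the labels, all rats weighed 150 g at the start, carried a gastric cannula and were overfed for 21 days by 17% of calories with isocaloric liquid diets, so a diet with more fat also held less carbohydrate. Each array held a numbered pool of RNA. The labels do not say that the pools of a diet came from separate animals, so p-values measure the spread between these pools, which may be technical.

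Peroxisomes shorten very long-chain, branched and dicarboxylic fatty acids that mitochondria take up poorly, and in rodent liver many of their enzymes are targets of PPARA, a nuclear receptor that fatty acids activate. Acyl-CoA esters enter through transporters of the ABCD family, are oxidised, hydrated and dehydrogenated again, and are cut by a thiolase, while auxiliary isomerases handle the double bonds of unsaturated chains. Peroxisomes multiply by elongation of their membrane, constriction and fission, steps in which PEX11 proteins act. The livers were bulk tissue, in which fewer cells of a type and less RNA per cell cannot be told apart.

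The RefSeq table of the GRCr8 build held a promoter for 4 of the 5 genes, and those of Pex11a and Ehhadh are shown because their arrays at 70% fat lay above those at 5% fat within each oil, and no other gene had a pattern closer to that of Ehhadh than Pex11a. That of Hsd17b4, whose mean over probe sets did not pass the test for fat, is shown beside them. Single probe sets of Hsd17b4 did change, with corn minus olive oil at 5% fat from -1.36 to 0.67, as given below. Each sequence is the 250 bases before the annotated start, on the strand of the gene. Capitals mark the GC box GGGCGG, the box CCAAT or the nuclear receptor half-site AGGTCA, each searched on both strands. The positions are chr1:143096492-143096741 on the minus strand for Pex11a, chr11:92746159-92746408 on the plus strand for Ehhadh and chr18:45515177-45515426 on the plus strand for Hsd17b4.
Pex11a: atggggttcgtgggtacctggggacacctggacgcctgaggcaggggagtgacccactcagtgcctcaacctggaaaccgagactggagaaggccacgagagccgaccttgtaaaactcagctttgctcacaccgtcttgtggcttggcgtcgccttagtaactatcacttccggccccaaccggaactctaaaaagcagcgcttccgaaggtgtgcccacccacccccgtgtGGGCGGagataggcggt
Ehhadh: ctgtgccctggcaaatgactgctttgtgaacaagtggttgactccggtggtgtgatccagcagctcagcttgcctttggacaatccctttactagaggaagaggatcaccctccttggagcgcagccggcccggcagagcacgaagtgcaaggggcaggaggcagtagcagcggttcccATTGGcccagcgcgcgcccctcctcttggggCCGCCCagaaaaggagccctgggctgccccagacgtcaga
Hsd17b4: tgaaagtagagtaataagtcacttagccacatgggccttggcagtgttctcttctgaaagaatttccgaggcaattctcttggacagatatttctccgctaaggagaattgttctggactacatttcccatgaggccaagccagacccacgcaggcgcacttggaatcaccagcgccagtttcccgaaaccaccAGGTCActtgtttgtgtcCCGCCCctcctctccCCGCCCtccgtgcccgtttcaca

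The direct repeat that PPARA and its partner RXR bind, a pair of half-sites with 1 base between them, was searched as AGGTCANAGGTCA and, more loosely, as AGGNCANAGGNCA. Neither was found in the 250 bases of any of the 4 genes. Of 33469 promoters of that length, 0.0508% held the first and 0.368% the second. The half-site alone, which both longer motifs contain in full or in part, was found in Hsd17b4 and not in Pex11a, Ehhadh or Abcd3, against 14.1% of all promoters. A GC box was found in all 4 genes, with 2 in Hsd17b4, against 30.5% of all promoters. The share of G and C was 60.0% in Pex11a, 62.0% in Ehhadh, 52.4% in Hsd17b4 and 75.6% in Abcd3, against a median of 51.2% over all promoters. Its part in the GC box count was not tested. A CCAAT box was found in Ehhadh alone among the 4, against 34% of all promoters, and TATAAA was found in none of them, against 12.9%. Ech1 is named without a promoter.

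Values below are the authors' log2 values, in which each probe set is centred on its median over the 12 arrays. They are thus differences from that median, no level of a gene is known, and genes cannot be ranked by level. A gene with several probe sets is given as their mean. The arrays of the oils differed in an index of the control probe sets for actin and GAPDH, the 3' end minus the 5' end on the log2 scale. The index averaged 0.71 ± 0.48 with 70% corn oil and 1.28 ± 0.28 with 5% corn oil, and -0.35 ± 0.10 with 70% olive oil and -0.36 ± 0.06 with 5% olive oil (SD, n = 3 each). The corn oil arrays lay 1.35 above the olive oil arrays with no overlap (exact permutation test, two-sided, p = 0.00216, the smallest that 6 arrays against 6 can give). The index at 70% minus 5% fat was -0.56 for corn oil and 0.018 for olive oil (exact permutation p = 0.2 and 0.8, where 3 arrays against 3 cannot go below 0.1). Liver identity could not be checked by hepatocyte markers, as the centred values hold no levels. Of these markers 9 were measured, and 0 of them passed the test for fat with either oil (2 at an unadjusted p under 0.05 with corn oil, 0 with olive oil).

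Averaged over both oils, 3 of the 5 genes, Pex11a, Ech1 and Ehhadh, were about 2-fold higher with 70% than with 5% fat, and Hsd17b4 and Abcd3 did not pass the test. By limma with Benjamini-Hochberg adjustment over all 4736 genes, 1.08% of genes rose in this contrast. Pex11a, which acts in peroxisome division, rose by 1.03 ± 0.14 (SE; 2.04-fold, adjusted p = 0.00133). Ech1, a dienoyl-CoA isomerase of peroxisomes and mitochondria that prepares unsaturated fatty acids for oxidation, rose by 1.23 ± 0.16 (2.34-fold, adjusted p = 0.0013). Ehhadh, the bifunctional enzyme that hydrates enoyl-CoA and dehydrogenates the product in the classical peroxisomal pathway, rose by 1.03 ± 0.17 (2.05-fold, adjusted p = 0.00591). Hsd17b4, the second bifunctional enzyme, which serves branched fatty acids and bile acid precursors, was at 0.19 ± 0.07 (adjusted p = 0.186). Abcd3, a transporter of the peroxisomal membrane for acyl-CoA esters, was at 0.17 ± 0.10 (adjusted p = 0.463). The 95% interval of that mean fat effect ran from 0.05 to 0.34 for Hsd17b4 and from -0.04 to 0.38 for Abcd3, below the lower bounds of Ech1 and Pex11a at 0.87 and 0.73 and of Ehhadh at 0.66. The calls of the 3 genes also held in all 7 other settings run on this contrast, the index as a covariate among them (0.89 for Pex11a, 1.08 for Ech1 and 0.96 for Ehhadh), and without each array in turn.

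**Figure D1:**
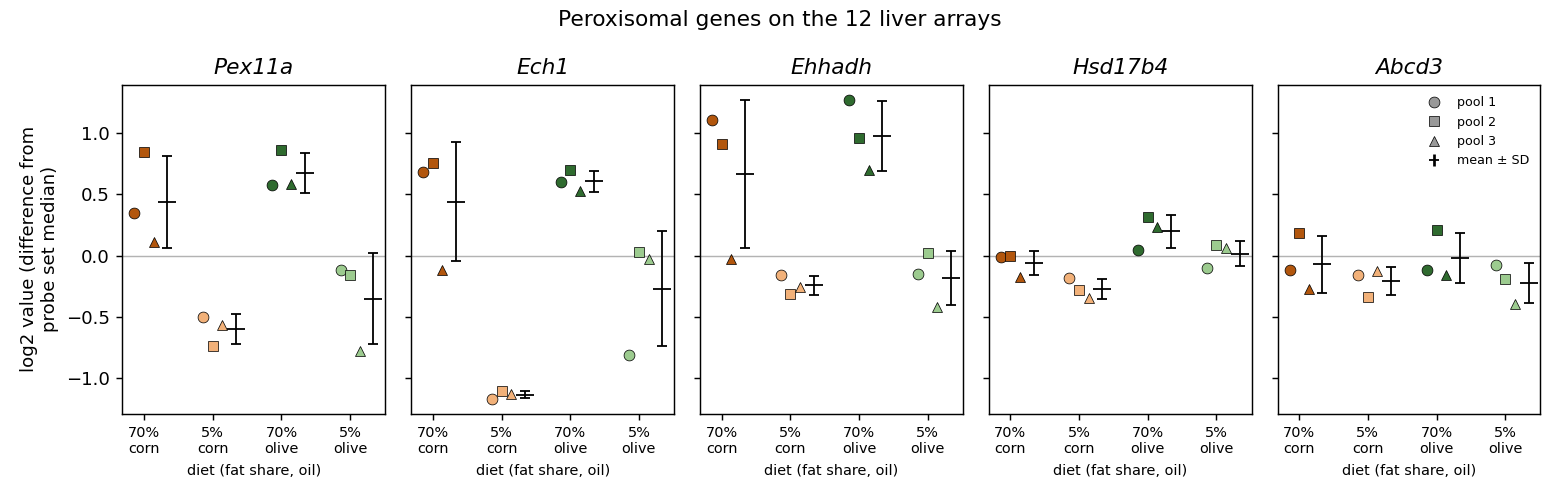
Log2 value, as the difference from the probe set median, of each gene on the 12 arrays (vertical axis) by diet (horizontal axis), with 1 symbol for each pool and the mean ± SD of 3 arrays beside them. Pex11a, Ech1 and Ehhadh lie higher with 70% than with 5% fat on every array of each oil, while Hsd17b4 and Abcd3 stay between -0.40 and 0.31.

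The gene of peroxisome division, Pex11a, passed the test for fat with each oil. With corn oil, Pex11a was at 0.35, 0.85 and 0.11 in pools 1 to 3 at 70% fat, against -0.50, -0.74 and -0.57 at 5% fat. With olive oil it was at 0.57, 0.86 and 0.59 at 70% fat, against -0.12, -0.15 and -0.78 at 5% fat. Neither comparison had overlapping arrays, and pool 3 of 5% olive oil was the lowest of all 12. Pex11a rose by 1.04 ± 0.20 with corn oil (2.05-fold, adjusted p = 0.018) and by 1.03 ± 0.20 with olive oil (2.04-fold, adjusted p = 0.0426). The difference of the fat effects, corn minus olive, was 0.01 with a 95% interval from -0.59 to 0.61 (adjusted p = 0.996), an interval too wide to show that the effects were alike. The difference was -0.44 on probe set AJ224120_at and 0.46 on rc_AA892128_at, and that of their mean was -0.29 with the index as a covariate and -0.26 after a second quantile normalization. The call with corn oil was lost with the index as a covariate (0.75, adjusted p = 0.208) and after a second quantile normalization (0.87, adjusted p = 0.089), and without pool 2 of 70% corn oil or pool 1 or 2 of 5% corn oil (adjusted p up to 0.0825). That with olive oil was lost with each array centred (adjusted p = 0.0813), with robust moderation alone or in the fit of both olive oil groups alone (adjusted p = 0.054). It was also lost when any of 9 single arrays was left out (highest adjusted p = 0.166). Neither probe set of Pex11a passed by itself with olive oil (adjusted p = 0.0658 and 0.0614).

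The enzyme for double bonds, Ech1, had its lowest values with 5% corn oil. It was at 0.69, 0.75 and -0.12 with 70% corn oil, against -1.17, -1.11 and -1.13 with 5% corn oil. It was at 0.60, 0.70 and 0.53 with 70% olive oil, against -0.81, 0.03 and -0.03 with 5% olive oil. The 3 arrays of 5% corn oil lay close to each other and below all others, while pool 1 of 5% olive oil lay apart from its own group. Ech1 rose by 1.58 ± 0.23 with corn oil (2.98-fold, adjusted p = 0.00338), a call kept without each array in turn and lost after a second quantile normalization (1.31, adjusted p = 0.0707). It was at 0.88 ± 0.23 with olive oil (adjusted p = 0.186). With the index as a covariate it was at 1.28 with corn oil (adjusted p = 0.0815) and at 0.89 with olive oil (adjusted p = 0.138). The difference of both fat effects was 0.70 with a 95% interval from -0.02 to 1.41 and did not pass the test (unadjusted p = 0.0546, adjusted p = 0.428).

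The first bifunctional enzyme, Ehhadh, had its highest mean with 70% olive oil, on arrays that overlapped those of 70% corn oil. It was at 1.10, 0.91 and -0.02 with 70% corn oil, against -0.16, -0.32 and -0.25 with 5% corn oil. It was at 1.27, 0.96 and 0.70 with 70% olive oil, against -0.15, 0.02 and -0.42 with 5% olive oil. All arrays at 70% fat lay above those at 5% fat within each oil, yet pool 3 of 70% corn oil lay within the range of the 5% olive oil arrays. Within an oil the change did not pass the test, at 0.91 ± 0.24 with corn oil (adjusted p = 0.0699) and 1.16 ± 0.24 with olive oil (adjusted p = 0.0649). Both passed with array weights (adjusted p = 0.0125 and 0.00406) and without pool 3 of 70% corn oil (1.25, adjusted p = 0.00344, and 1.16, adjusted p = 0.00366). The corn oil change did not pass in 6 of the 8 other settings (adjusted p up to 0.331). Nor did it pass when any of 11 single arrays was left out (0.69 at the lowest, adjusted p up to 0.185). The olive oil change did not pass in 4 of the 8, nor when any of 10 single arrays was left out (adjusted p up to 0.2 and 0.356). The fat effects differed by -0.25 between the oils, with a 95% interval from -0.99 to 0.49 (adjusted p = 0.82).

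Fewer of the 5 genes were thus called within each oil than in the average over both. With corn oil, 2 of the 5 genes rose, against 1.52% of all genes, and with olive oil 1 of 5 rose, against 0.211% of all genes. Arrays at 70% fat lay wholly above those at 5% fat for 4 of the 5 genes with corn oil, against 8.72% of all genes, and for 3 with olive oil, against 12.7%. None of the 5 fell with either oil, against 1.01% of all genes with corn oil and 0.338% with olive oil. The median fat effect of the 5 genes was 0.91 for corn and 0.88 for olive oil. The median of all genes was -0.0019 and 0.0256. For the difference of the fat effects, 0 of the 5 genes passed by limma (0 at an unadjusted p under 0.05, and 0% of all genes passed).

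Pool 3 of 70% corn oil held the lowest value of its diet for all 5 genes, with a mean deviation of -0.38 from the diet means, while pool 2 of that diet held values above the diet mean for all 5, with a mean deviation of 0.26. On pool 3 the array median was 0.062, the highest of the 12, and its index was 1.03, against 0.16 on pool 2. Pool 1 of that diet had an index of 0.95, close to that of pool 3, and a mean deviation of 0.12. The part of these array differences in the values of the genes was not tested. Without pool 3 of 70% corn oil the corn oil fat effect was 1.20 for Pex11a, 1.85 for Ech1 and 1.25 for Ehhadh, all past the test. As pool 3 was the lowest array of its diet, leaving it out had to raise these values. Over all arrays left out in turn, the lowest values were 0.83 for Pex11a, 1.42 for Ech1 and 0.69 for Ehhadh. Pex11a did not pass without pool 2 of 70% corn oil, and Ehhadh did not pass without pool 1 or pool 2 of that diet.

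The order of the 4 diet means was the same for Pex11a, Ech1 and Ehhadh: 70% olive oil, then 70% corn oil, then 5% olive oil, then 5% corn oil. For Hsd17b4 it was 70% olive, 5% olive, 70% corn and 5% corn oil, and for Abcd3 70% olive, 70% corn, 5% corn and 5% olive oil. On probe set rc_AA892128_at of Pex11a, however, 70% corn oil was above 70% olive oil, at 0.81 and 0.44. With the index as a covariate corn minus olive oil at 70% fat was 0.30 for Pex11a, 0.39 for Ech1 and -0.03 for Ehhadh. At 5% fat these differences were 0.59, 0.0043 and 0.37, none past the test. The neighbours 70% corn and 5% olive oil were not compared. At the same fat level the neighbours did not pass the test for the means of Pex11a and Ehhadh, nor for Ech1 at 70% fat, while probe set AJ224120_at of Pex11a alone was lower with corn oil at 70% fat. At 5% fat Ech1 was lower with corn oil, at -1.14 ± 0.03, than with olive oil, at -0.27 ± 0.47 (SD, n = 3 each), a difference of -0.86 ± 0.23 (SE, adjusted p = 0.0238). It was the 1 gene of 5 lower with corn oil at 5% fat, against 8.49% of all genes, and its arrays did not overlap, with the corn oil arrays below, as for 15.6% of all genes. The index did not overlap between the oils either. With the index as a covariate this difference was 0.0043 (adjusted p = 0.999), so oil and index cannot be told apart here. The call was also lost after a second quantile normalization (-0.48, adjusted p = 0.307), and when any array of 5% corn oil, or either pool 2 or pool 3 of 5% olive oil, was left out (adjusted p from 0.0522 to 0.0975). In the same contrast 3 of 9 hepatocyte markers and 2 of 7 macrophage and Kupffer cell markers were lower with corn oil, and 3 of 6 stellate cell markers were higher. Of 3 endothelial markers 1 was higher and 1 lower, and of 3 adipocyte markers 1 was higher. Of all 4736 genes 801 differed in this contrast, 402 of them lower with corn oil. The mean of the hepatocyte markers ran from -0.18 to -0.14 with 5% corn oil and from 0.02 to 0.08 with 5% olive oil, and the part of these markers in the result was not tested. At 70% fat 0 of the 5 genes differed between the oils by limma (1 at an unadjusted p under 0.05), against 6.93% of all genes. The differences there were -0.24 for Pex11a (95% interval from -0.67 to 0.19), -0.17 for Ech1 (from -0.67 to 0.34) and -0.31 for Ehhadh (from -0.84 to 0.21).

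For Hsd17b4 and Abcd3 the mean over probe sets hid differences between the oils that ran in opposite directions. In Abcd3, probe set D90038_at was at 0.68, 0.28 and 0.73 with 70% corn oil, against -0.58, -0.28 and -0.69 with 70% olive oil. At 5% fat it was at 0.66, 0.51 and 0.51 with corn oil, against -0.41, -0.70 and -0.71 with olive oil. The other probe set, rc_AA946532_at, was at -0.90, 0.09 and -1.28 with 70% corn oil, against 0.34, 0.70 and 0.38 with 70% olive oil. All 6 corn oil arrays lay above all 6 olive oil arrays on the first probe set, while on the second the corn oil arrays were the lower ones, apart from pool 2 of 70% corn oil, which lay above pool 3 of 5% olive oil. At 5% fat the second probe set was at -0.97, -1.18 and -0.77 with corn oil, against 0.26, 0.31 and -0.09 with olive oil.

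In the fit of all 8740 probe sets, corn minus olive oil was 1.07 ± 0.14 at 70% fat (limma adjusted p = 0.00235) and 1.16 ± 0.14 at 5% fat for D90038_at (adjusted p = 0.000305). For rc_AA946532_at it was -1.17 ± 0.27 at 70% fat (adjusted p = 0.0224) and -1.13 ± 0.27 at 5% fat (adjusted p = 0.012). The mean of both probe sets gave -0.05 and 0.02 for Abcd3. Neither probe set passed the test for fat with either oil, with values between 0.002 and 0.31. Probe sets of a gene called in opposite directions were counted after these values had been seen: they were found for 5 of 1565 genes with several probe sets at 70% fat, or 0.319%, and for 54, or 3.45%, at 5% fat.

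Hsd17b4 had 4 probe sets that did not move as a group. On rc_AI101743_s_at the corn oil values were -0.45, 0.05 and -0.90 at 70% fat, against -0.05, 0.74 and 0.64 with 70% olive oil. At 5% fat it was at -0.70, -0.67 and -0.88 with corn oil, against 0.39, 0.67 and 0.77 with olive oil. On S83279_g_at the 5% fat values were higher with corn oil, at 0.43, 0.03 and -0.10, than with olive oil, at -0.57, -0.44 and -0.63. Corn minus olive oil at 5% fat was thus -1.36 ± 0.24 on the first (adjusted p = 0.00189) and 0.67 ± 0.12 on the second (adjusted p = 0.00294), both without overlap of the arrays. On S83279_at it was -0.42 ± 0.09 at 70% fat (adjusted p = 0.0121) and -0.42 ± 0.09 at 5% fat (adjusted p = 0.00471), and on rc_AI013834_s_at no array went beyond -0.18 or 0.19.

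The fat effect of Hsd17b4 also depended on the probe set. On S83279_at the values were 0.03, -0.08 and -0.03 with 70% corn oil, against -0.45, -0.44 and -0.30 with 5% corn oil, and 0.38, 0.41 and 0.38 with 70% olive oil, against -0.12, 0.09 and 0.11 with 5% olive oil. The groups did not overlap in either oil, and the change was 0.37 ± 0.09 with corn oil (adjusted p = 0.0478) and 0.37 ± 0.09 with olive oil (adjusted p = 0.119). Averaged over both oils it was 0.37 ± 0.06 (adjusted p = 0.00707), and 0.36 with the index as a covariate (adjusted p = 0.0326). On the other 3 probe sets the average ran from 0.07 to 0.23 and did not pass. Of these, S83279_g_at was at 0.50 ± 0.12 with olive oil, without overlap of the arrays (adjusted p = 0.167), and at -0.03 ± 0.12 with corn oil (adjusted p = 0.918). For the mean of all 4, Hsd17b4 was at -0.01, -0.0022 and -0.17 with 70% corn oil, against -0.18, -0.28 and -0.34 with 5% corn oil. It was at 0.05, 0.31 and 0.23 with 70% olive oil, against -0.10, 0.08 and 0.06 with 5% olive oil, where the groups overlapped. Corn minus olive oil for that mean was -0.26 ± 0.09 at 70% fat (adjusted p = 0.113) and -0.28 ± 0.09 at 5% fat (adjusted p = 0.0545).

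Of the 10 probe sets, 3 rose with fat under corn oil, against 1.30% of all probe sets, 0 passed under olive oil, against 0.126% that rose, and 5 rose in the average over both oils, against 1.25%. Those 5 were both of Pex11a, S83279_at of Hsd17b4 and the probe sets of Ech1 and Ehhadh, and with the index as a covariate all 5 were still called. Between the oils, 1 was higher and 4 lower with corn oil at 70% fat, against 3.96% and 4.55% of all probe sets, and 2 were higher and 4 lower at 5% fat, against 10.1% and 9.36%. The probe sets of Pex11a differed in the oil contrast at 70% fat too, where AJ224120_at was at -0.85 ± 0.19 (adjusted p = 0.0193) and rc_AA892128_at at 0.37 ± 0.23 (adjusted p = 0.37). With corn oil the fat effect was 0.50 ± 0.19 on the first (adjusted p = 0.186) and 1.58 ± 0.23 on the second (adjusted p = 0.00362). With olive oil they were closer, at 0.93 ± 0.19 and 1.12 ± 0.23 (adjusted p = 0.0658 and 0.0614).

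**Figure D2:**
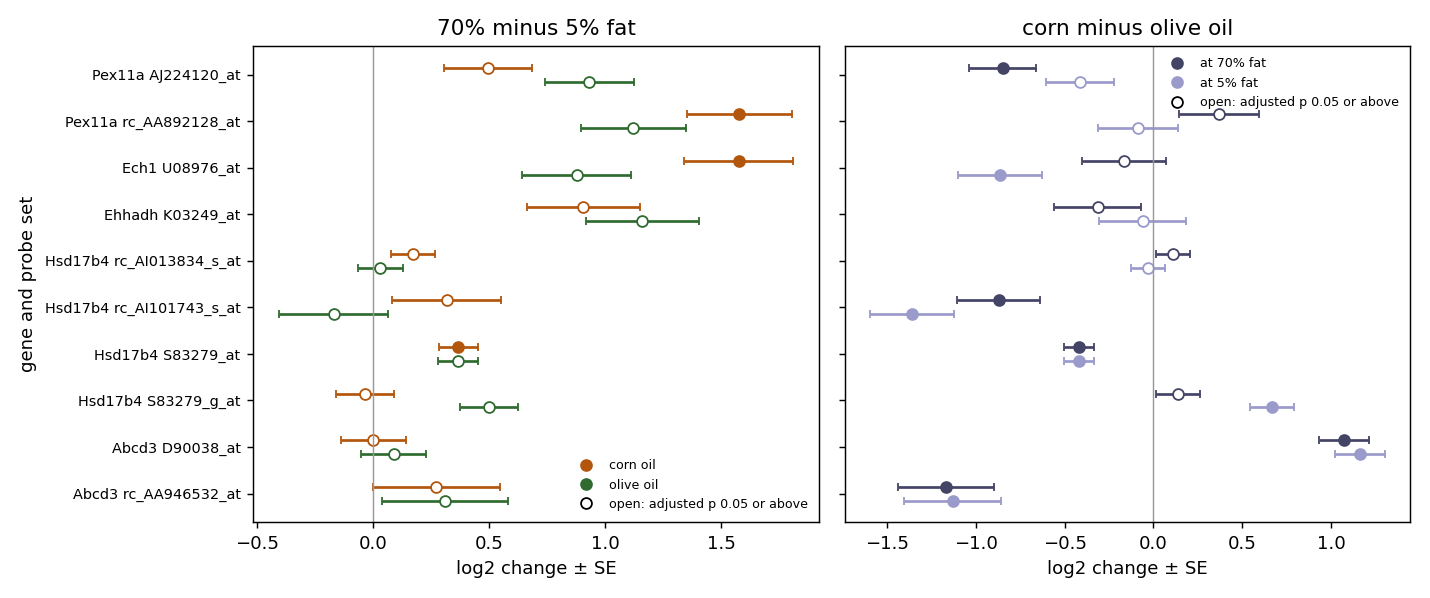
Log2 change ± SE of the 10 probe sets (rows), on the left for 70% minus 5% fat with each oil and on the right for the oils, corn minus olive, at 70% and at 5% fat, with filled points for an adjusted p under 0.05 by limma. The probe sets of Pex11a, Ech1 and Ehhadh lie right of 0 on the left, and those of Abcd3 lie at 1.07 and 1.16 and at -1.17 and -1.13 on the right.

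The difference between probe sets of 1 gene on the same array was taken after the values had been seen, so it is given as a description with no test. For Abcd3, D90038_at minus rc_AA946532_at averaged 1.39 ± 0.64 with corn oil and -0.88 ± 0.19 with olive oil (SD, n = 6 each). For Hsd17b4, rc_AI101743_s_at minus S83279_g_at averaged -0.69 ± 0.40 with corn oil and 0.82 ± 0.50 with olive oil (SD, n = 6 each). Pool 2 of 70% corn oil, whose index of 0.16 was the lowest of the corn oil arrays, also had the smallest difference for Abcd3 among them, at 0.19, where the other corn oil arrays ran from 1.27 to 2.0. With the index as a covariate, 0 of the 10 probe sets differed between the oils at either fat level by limma, and the count over all probe sets went to 0 from 744 at 70% and from 1704 at 5% fat. That fit had larger SEs, and a call lost there does not show that a difference was absent. On S83279_at of Hsd17b4 corn minus olive oil was then -0.39 ± 0.17 at 70% fat and -0.38 ± 0.24 at 5% fat (SE). For Abcd3 it was 0.63 ± 0.23 and 0.47 ± 0.32 on D90038_at, and 0.07 ± 0.31 and 0.79 ± 0.44 on rc_AA946532_at. The index and the oil cannot be told apart across these arrays.

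**Figure D3:**
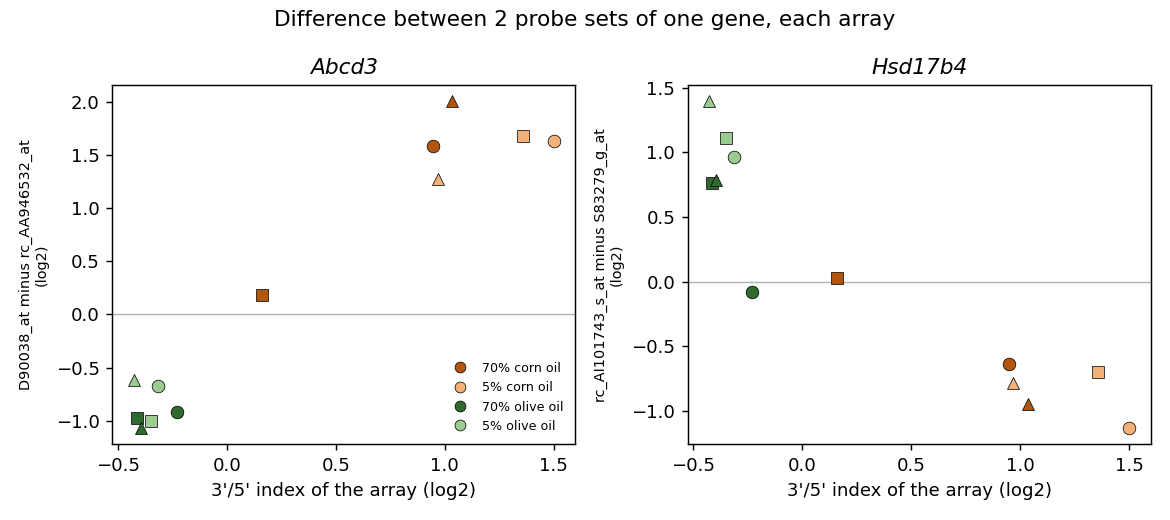
Difference between 2 probe sets of the same gene on each array (vertical axis, log2) against the 3'/5' index of the array (horizontal axis, log2), for Abcd3 and Hsd17b4, coloured by diet, with a circle, square or triangle for pool 1, 2 or 3. The corn oil arrays lie at an index of 0.16 or more and the olive oil arrays at -0.23 or less, and for Abcd3 pool 2 of 70% corn oil, at 0.19, lies between the other corn oil arrays and the olive oil arrays.

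By the root mean square difference over the 12 arrays, the other genes with the pattern most like Pex11a were Decr1, a mitochondrial dienoyl-CoA reductase, at 0.20, and Cyp2b2, a drug-metabolising cytochrome, at 0.21, where the pattern of Pex11a itself had a root mean square of 0.58. For Ech1, at 0.74, they were Eci1, an enoyl-CoA isomerase of mitochondria, at 0.30, and Cyp4a1, a fatty acid omega-hydroxylase, at 0.31. For Ehhadh, at 0.60, they were Decr1 at 0.28 and Eci1 at 0.31, and Pex11a was closer than either, at 0.26. The patterns of Hsd17b4 and Abcd3, means over probe sets that moved in opposite directions between the oils, had a root mean square of 0.19 and 0.17, and the genes closest to these means were Pter at 0.09 and Ywhaq at 0.10, and Pgc at 0.11 and Dync1i2 at 0.12.

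A broad list of other enzymes of peroxisomal fatty acid oxidation also held an epoxide hydrolase and a fatty aldehyde dehydrogenase. Of its 28 genes, 11 were measured. With corn oil 3 rose and 0 fell, against 1.52% and 1.01% of all genes. With olive oil 1 rose and 0 fell, against 0.211% and 0.338%, and in the average over both oils 4 rose, against 1.08%, and 0 fell. The 4 were Crot, the carnitine acyltransferase that exports shortened chains, at 1.56 ± 0.20 (adjusted p = 0.0012), Acaa1b, a peroxisomal thiolase, at 0.89 ± 0.17 (adjusted p = 0.013), Ephx2, an epoxide hydrolase, at 0.74 ± 0.13 (adjusted p = 0.00869), and Slc27a2, a very long-chain acyl-CoA synthetase, at 0.47 ± 0.08 (adjusted p = 0.005). The thiolase was at 0.99, 0.98 and 0.0046 with 70% corn oil, against 0.13, -0.36 and -0.46 with 5% corn oil, so its pool 3 was also the lowest of that diet. Scp2, whose gene encodes the thiolase for branched chains, was at 0.0035 ± 0.10 (adjusted p = 0.991). The list had a median of 0.26 in that average, and all genes 0.0144.

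Apart from Pex11a, which is counted above and not in the lists here, no measured gene of peroxisome assembly or of the fission machinery passed the test for fat. Of 14 listed biogenesis factors (peroxins that import membrane and matrix proteins), 6 were measured. In the average over both oils 0 of these 6 passed by limma, with 0 at an unadjusted p under 0.05, and their median was 0.02. Of all genes, 1.08% rose in that contrast and 14.2% had an unadjusted p under 0.05. Lists this short can thus hold 0 calls without differing from all genes. Of 6 listed genes of the division machinery 2 were measured, Dnm1l and Fis1 of the fission step that peroxisomes share with mitochondria. They were at -0.01 ± 0.05 (adjusted p = 0.93) and -0.04 ± 0.06 (adjusted p = 0.837). Of 5 other membrane proteins 0 passed (2 at an unadjusted p under 0.05), and of 15 other enzymes found in peroxisomes 1 rose, Agxt, an aminotransferase that detoxifies glyoxylate, at 0.39 ± 0.07 (adjusted p = 0.0124). Cat, the catalase that removes the hydrogen peroxide of peroxisomal oxidation, was at -0.20 ± 0.13 (adjusted p = 0.538). Ppara itself was at 0.17 ± 0.07 (adjusted p = 0.311), and 0 of the 7 measured genes of PPARA and its partners passed (3 at an unadjusted p under 0.05).

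**Figure D4:**
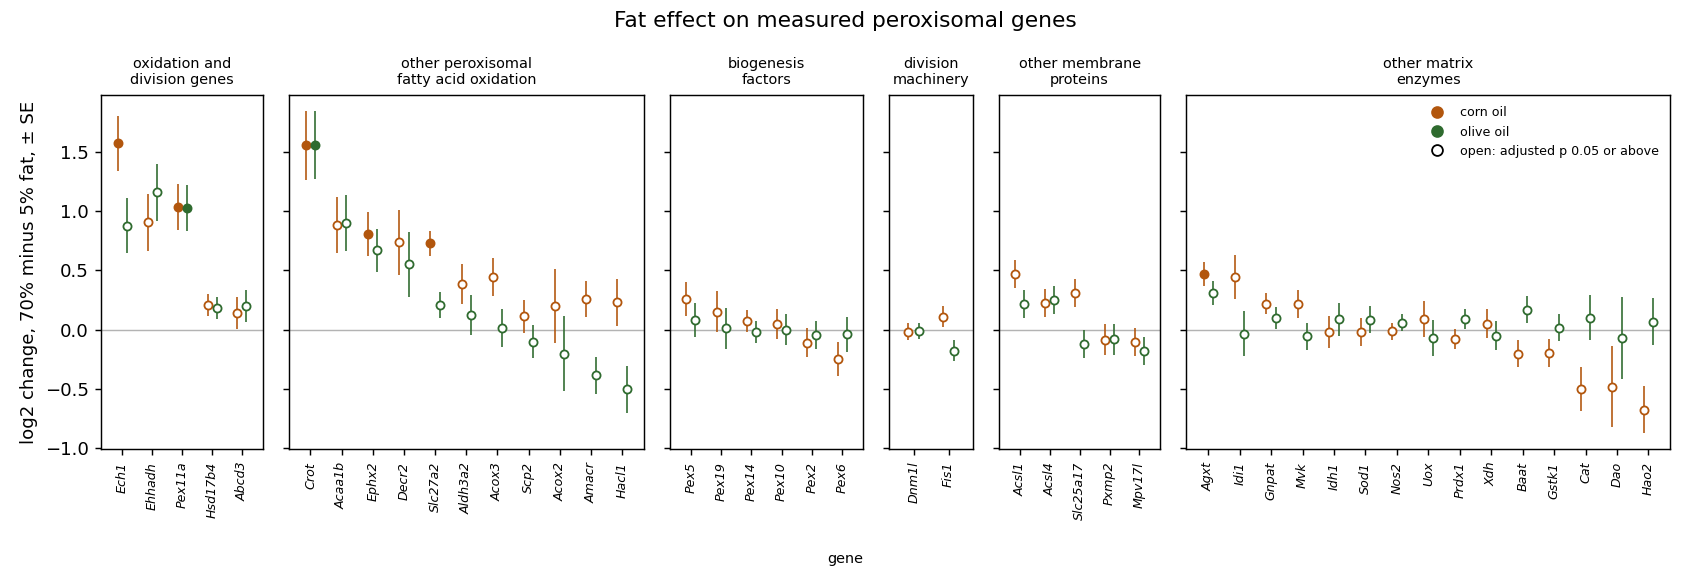
Log2 change ± SE for 70% minus 5% fat with corn oil and with olive oil (vertical axis) of each measured peroxisomal gene (horizontal axis), grouped by role, with filled points for an adjusted p under 0.05 by limma. Values of 0.88 or above with both oils are seen for Ech1, Ehhadh, Pex11a, Crot and Acaa1b, while the biogenesis factors and the fission genes lie between -0.25 and 0.26.

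Of the 17 measured enzymes of mitochondrial beta-oxidation and the carnitine shuttle, 7 rose in the average over both oils, against 1.08% of all genes, and 0 fell, with a median of 0.40. Beside the olive oil fat effects, markers of macrophages and Kupffer cells moved: 1 of 7 measured fell, against 0.338% of all genes (5 at an unadjusted p under 0.05). Their median was -0.66, where all genes had 0.0256. Their mean per array ran from -0.38 to -0.11 with 70% olive oil and from 0.07 to 0.40 with 5% olive oil. With corn oil 0 of the 7 passed (1 at an unadjusted p under 0.05), with means from -0.18 to 0.11 at 70% fat and from -0.25 to 0.18 at 5% fat. The part of these markers in the results was not tested, and the centred values do not show which markers were at background. Endothelial, stellate cell and adipocyte markers, 3, 6 and 3 measured, held 1 gene called for fat, that of the endothelial gene Kdr, which fell with corn oil and in the average over both oils.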

How the data were processed

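Log2 values of 8799 probe sets were deposited by the authors, made with GCOS and RMA per the submitters' processing notes, with no version given. No header gives the base of the logarithm, taken as 2. For 100% of probe sets the row median was 0 within 1e-06, so levels, background and a filter on dim probe sets could not be used, and precision is limited by the number of arrays. The 2 most similar arrays still differed by 0.195 (root mean square), so none was counted as a copy. After 59 controls were left out, 8740 probe sets were fitted. The annotation gave 1 symbol to 7006, several to 308 and left 1426 unnamed here. Of the 7006, 6985 took the GRCr8 symbol through the gene identifier. There were 0 columns of other samples.

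Tests used limma 3.58.1 in R 4.3.3 (lmFit, contrasts and eBayes without a trend, a mean per diet, all 12 arrays, 8 residual degrees of freedom), two-sided, with Benjamini-Hochberg adjustment over all genes or all probe sets within each of 6 contrasts and a threshold of 0.05. A gene is the mean of its probe sets. The code was tested on simulated data. The members and lists were chosen with earlier results of these data known. Named beside the members were listed genes past the threshold, a set always looked up and the 2 genes with the closest pattern to each member. Same-numbered pools did not deviate together (correlations from -0.157 to 0.227 over 18 pairs of arrays, 4 above 0.1), so the numbers were not taken as pairs. Alternatives were single probe sets, centring of each array, quantile normalization applied again, trend with robust moderation, array weights, the pool number as a block, the arrays of 2 groups only, the 3'/5' index as a covariate and leaving out each array in turn; robust moderation alone and the index on single probe sets were added after seeing the data.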

Additional observations from a re-analysis of the deposited data

How the results depend on the processing

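The 3 calls in the average over both oils held in all settings and without each array, and 4 genes had a called probe set there. The following counts are of the 5 genes called. With corn oil fat, where 2 passed, 0 passed after a second quantile normalization or in the fit that holds the 3'/5' index, and 1 to 3 without each array. With olive oil fat, where 1 passed, 0 passed on single probe sets, with each array centred or with robust moderation alone, 2 after a second quantile normalization, 3 with array weights and 0 to 2 without each array. The replicate block of pool numbers, which do not pair the arrays, gave 2 there and 3 with corn oil. For oil at 5% fat, where 1 passed, 0 passed after a second quantile normalization or with the index, 2 with each array centred or with array weights, 3 on single probe sets and 0 to 2 without each array. At 70% fat 0 became 3 on single probe sets. The cause was not tested. Over all genes, calls for fat with corn oil were 120 in the fit reported and 23 to 219 in the others, with olive oil 26 and 11 to 94, for oil at 70% fat 328 and 1 to 538, for oil at 5% fat 801 and 0 to 1315, and for the average fat effect 103 and 66 to 140.

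Signs turned as follows. On single probe sets the fat effect of Hsd17b4 was -0.034 on S83279_g_at with corn oil and -0.17 on rc_AI101743_s_at with olive oil. For oil at 70% fat D90038_at of Abcd3 was at 1.07, rc_AA892128_at of Pex11a at 0.37, and rc_AI013834_s_at and S83279_g_at of Hsd17b4 at 0.11 and 0.14. At 5% fat rc_AA946532_at of Abcd3 was at -1.13 and S83279_g_at of Hsd17b4 at 0.67. For the difference of the fat effects AJ224120_at of Pex11a was at -0.44 and S83279_g_at of Hsd17b4 at -0.53. With the index, fat with corn oil was -0.073 for Abcd3. Oil at 70% fat was then 0.30 for Pex11a, 0.39 for Ech1 and 0.35 for Abcd3, oil at 5% fat 0.59 for Pex11a, 0.0043 for Ech1 and 0.37 for Ehhadh, and the difference of the fat effects -0.29 for Pex11a and -0.022 for Hsd17b4. With array weights Ech1 was at 0.016 for oil at 70% fat, Abcd3 at -0.038 for oil at 5% fat, and the difference of the fat effects was 0.15 for Ehhadh and 0.027 for Abcd3. That difference was -0.26 for Pex11a after a second quantile normalization, and Abcd3 was at -0.018 for oil at 5% fat with each array centred.

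Without each array, oil at 70% fat ran from -0.17 to 0.069 for Abcd3, from -0.32 to 0.11 for Ech1 and from -0.53 to 0.030 for Ehhadh. Oil at 5% fat ran from -0.073 to 0.089 for Abcd3 and from -0.18 to 0.042 for Ehhadh. The difference of the fat effects ran from -0.19 to 0.054 for Abcd3, from -0.47 to 0.091 for Ehhadh, from -0.052 to 0.083 for Hsd17b4 and from -0.20 to 0.22 for Pex11a. None of these values was past the test but those of Abcd3 and, at 5% fat, Hsd17b4 on single probe sets.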

Other observations

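Other peroxisomal genes differed between the oils on arrays whose 3'/5' index did not overlap between them. Of the 11 measured genes in the broad list of other fatty acid oxidation enzymes, 3 were lower with corn oil at 70% fat and 5 at 5% fat. These calls are by limma over all genes, and 0 were higher. Of all genes, 6.93% differed in either direction at 70% fat and 8.49% were lower with corn oil at 5% fat. Of 9 hepatocyte markers, 1 was lower with corn oil at 70% fat, where all 9 had negative differences, and 3 were lower at 5% fat. Their part in the values below was not tested. At 5% fat these were Acox3, an acyl-CoA oxidase for branched chains, at -1.35 ± 0.16 (corn minus olive oil, SE, adjusted p = 0.000363), Decr2, the peroxisomal dienoyl-CoA reductase, at -1.20 ± 0.27 (adjusted p = 0.011), Aldh3a2, a fatty aldehyde dehydrogenase, at -0.99 (adjusted p = 0.00222), Ephx2 at -0.79 ± 0.18 (adjusted p = 0.0119) and Scp2 at -0.58 ± 0.14 (adjusted p = 0.0135). For 3 of these genes the value is the mean of probe sets that did not move together: for Scp2 they were at -1.32 and 0.16, for Ephx2 from -1.95 to 0.21 and for Aldh3a2 from -2.35 to -0.13, while Acox3 had 1 probe set and both of Decr2 were lower. Pex2, a peroxin of the import complex, was at -0.85 at 70% fat (adjusted p = 0.00523) and -0.78 at 5% fat (adjusted p = 0.00123), as the mean of probe sets at -1.39 and -0.30 at 70% fat and at -1.44 and -0.12 at 5% fat. With the index as a covariate 1 gene of all 4736 differed between the oils at 70% fat and 0 at 5% fat. The index and the oil cannot be told apart in that fit either.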
